A study of Homo sapiens with 20 samples.

Results

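Exons that lie between 2 long introns have to be found by the splicing machinery in a large excess of intron sequence. Such exons of the human hepatoma line HepG2 are described here, with how often they were skipped after depletion of FUBP1, of the U3 small nucleolar RNA or of fibrillarin (FBL). A member is a skipped exon event with an exon longer than 30 and shorter than 300 bases, more than 5000 bases of intron on each side, and a mean of 10 or more junction reads per library. The rule used lengths and total reads only, and no measured change.

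Of the 59847 events listed over the 3 tables, 9197 had such lengths and 7516 also met the minimum of reads. They are 5024 distinct events at 4168 exons of 2434 genes, since the same exon can be listed with several neighbouring exons. The siFUBP1 table held 2457 members of 16213 events with enough reads, that of U3 held 4340 of 30110 and that of siFBL 719 of 5218. Of the distinct members, 553 had enough reads in all 3 tables and 1386 in 2 of them.

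HepG2 is an established line from a human liver tumour, and every library came from it. For FUBP1, 3 libraries treated with the small interfering RNA siFUBP1 were compared with 3 treated with the control siCtrl2, all harvested at 48 h. For U3, 3 libraries given the antisense oligonucleotide U3 ASO were compared with 3 given GFP ASO, at 72 h. For FBL, the 2 siFBL input and 2 siCtrl input libraries of an immunoprecipitation experiment were compared, at 48 h. RNA immunoprecipitated with FUBP1 is not analysed here. One siRNA or oligonucleotide was used per target, so effects of the target and of that reagent cannot be told apart. The libraries are described as biological replicates.

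Splicing joins the 5′ splice site at the end of 1 exon to the 3′ splice site before the next, where the branch point, a run of pyrimidines and the terminal AG are bound by SF1 and the U2AF subunits. FUBP1 is a KH-domain protein that binds U-rich single strands, first known for its action on MYC transcription, and later described as a factor bound upstream of 3′ splice sites with a role in the splicing of long introns. U3 is the box C/D small nucleolar RNA needed for the first cleavages of the ribosomal RNA precursor, and FBL is the methyltransferase of box C/D particles, which places 2′-O-methyl groups on RNA.

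The sequences below are coding exons named for their small p in the siFUBP1 comparison and 2 exons between some of the longest introns. Each is given 5′ to 3′ on the transcribed strand from hg38, with 50 intron bases before it, the exon in capitals, and 20 intron bases after it. The first line is exon 2 of RAB4A (chr1:229286436-229286586, plus strand). It is followed by exon 2 of CMC1 (chr3:28263241-28263400, plus), exon 6 of MFF (chr2:227347176-227347404, plus), exon 2 of SMYD2 (chr1:214305137-214305270, plus), exon 14 of EPB41L2 (chr6:130878084-130878300, minus), exon 2 of ZFAND3 (chr6:37929909-37930019, plus) and exon 2 of GMDS (chr6:2124667-2124781, minus), with exon numbers from the canonical transcript in GENCODE 44.
RAB4A exon 2: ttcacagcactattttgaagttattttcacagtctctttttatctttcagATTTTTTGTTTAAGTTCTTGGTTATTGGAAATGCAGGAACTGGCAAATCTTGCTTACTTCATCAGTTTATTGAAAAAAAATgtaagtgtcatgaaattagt
CMC1 exon 2: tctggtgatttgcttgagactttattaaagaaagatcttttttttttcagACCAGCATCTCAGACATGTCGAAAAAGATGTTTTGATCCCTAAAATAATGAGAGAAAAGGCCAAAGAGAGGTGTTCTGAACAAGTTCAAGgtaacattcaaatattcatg
MFF exon 6: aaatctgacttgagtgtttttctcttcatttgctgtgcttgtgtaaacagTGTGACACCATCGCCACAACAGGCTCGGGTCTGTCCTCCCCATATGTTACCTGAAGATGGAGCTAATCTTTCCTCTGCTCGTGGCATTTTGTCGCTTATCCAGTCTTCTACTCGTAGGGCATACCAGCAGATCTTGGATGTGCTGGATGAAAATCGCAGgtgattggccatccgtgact
SMYD2 exon 2: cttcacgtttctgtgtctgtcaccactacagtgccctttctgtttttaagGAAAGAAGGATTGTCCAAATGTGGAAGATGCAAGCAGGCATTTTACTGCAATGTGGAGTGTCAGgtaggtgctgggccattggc
EPB41L2 exon 14: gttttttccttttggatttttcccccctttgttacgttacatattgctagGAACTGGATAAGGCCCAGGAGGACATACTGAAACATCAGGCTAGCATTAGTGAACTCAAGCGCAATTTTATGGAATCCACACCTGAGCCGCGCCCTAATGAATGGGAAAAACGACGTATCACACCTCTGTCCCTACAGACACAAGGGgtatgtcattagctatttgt
ZFAND3 exon 2: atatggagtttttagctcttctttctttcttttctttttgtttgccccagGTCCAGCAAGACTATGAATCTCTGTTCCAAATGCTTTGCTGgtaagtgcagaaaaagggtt
GMDS exon 2: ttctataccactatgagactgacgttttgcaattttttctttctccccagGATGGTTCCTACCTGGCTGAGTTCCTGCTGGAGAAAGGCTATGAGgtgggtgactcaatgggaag

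Several exons named below are untranslated or, for USP6NL, partly coding, and for these only the last 30 intron bases before the exon are shown, with runs of 4 or more T in capitals. They are the windows of ACSL4 (chrX:109696197-109696226, minus strand), MRTFA (chr22:40594736-40594765, minus), MBNL3 (chrX:132439573-132439602, minus), USP6NL (chr10:11597718-11597747, minus) and RAB5C (chr17:42137879-42137908, minus).
ACSL4: tgtactcataaatgctgtctcttactgcag
MRTFA: tgaacTTTTaTTTTTctgtttgtgttgtag
MBNL3: gtcaatgttgccctgattcgtgataccaag
USP6NL: actatttctttctctttgtttcctgactag
RAB5C: TTTTgattgtcTTTTTTTTTTTTgagacag
The terminal AG was present before 99.9% of the members, and GT followed 99.1% of them. The coordinates of the tables therefore met the splice sites of the hg38 sequence used here.

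The members were ordinary in exon length and unusual in their surroundings. Their median length was 115 bases (quartiles 83 and 154), against 114 (83 and 152) for 17934 distinct events whose introns were both 5000 bases or shorter. The median intron before a member was 15790 bases and the median intron after it 11808.5 bases, and the longest was 356450 bases. Of the members, 75.1% were coding in GENCODE 44, 7.88% partly coding and 9.49% untranslated exons of coding transcripts, while the exons between short introns were 84.4% coding, 3.96% partly coding and 3.68% untranslated. A further 1.71% appeared in transcripts marked for nonsense-mediated decay only, 2.37% in noncoding transcripts only, and 3.40% were not listed as an exon. The length was a multiple of 3 in 38.8% of members and 41.5% of the exons between short introns. Exons with a short intron before and a long one after were also 75.1% coding, with 9.06% untranslated. Those with a long intron before and a short one after were 80.2% coding and 5.82% untranslated.

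The base composition around the members was rich in A and T, a trait shared in part by exons with a single long intron. The median GC of the 100 intron bases before the exon was 34% (quartiles 28 and 42) for members and 45% (33 and 59) for exons between short introns, with 36% and 48% in the 100 bases after it. The median share of T in the last 50 intron bases was 42% for members and 34% for the exons between short introns. The letters TTTT occurred in those 50 bases, read on the transcribed strand only, before 73.2% of members, 48.3% of exons between short introns and 57.7% of all 34408 tested distinct events. The letters TTGT, which can overlap with TTTT, occurred before 45.2%, 32.1% and 36.6%. The pyrimidine share from position 20 to 4 before the exon had the same median, 76.5%, in both sets. For exons with a long intron before and a short one after, the median GC before was 36%. TTTT occurred before 66.3% of them and TTGT before 41.0%. For exons with a short intron before and a long one after, these values were 37%, 65.9% and 39.9%. PTK2, the focal adhesion kinase, had the most member events with 28 at 13 exons, followed by DGUOK with 16 and COP1 with 14.

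The tables held 2693397 to 4474350 junction reads per library for FUBP1, 11249641 to 13321799 for U3 and 910779 to 1142189 for FBL, and the members took 8.35% to 8.64%, 6.93% to 7.68% and 6.30% to 6.97% of those of the tested events. The FUBP1 gene itself was listed with 1 skipped exon event in the siFUBP1 table, whose junction reads numbered 50.5 ± 5.44 RPM (reads per 1000000 junction reads of the table) in siCtrl2 and 7.52 ± 3.09 RPM in siFUBP1 (SD, n = 3 each). In the U3 table its 3 events took 59.9 ± 3.68 RPM with GFP ASO and 41.5 ± 2.53 with U3 ASO (SD, n = 3 each). FBL had no listed event, so its depletion could not be checked here. Of 16 hepatocyte genes, 11 to 14 had listed events with 87684 to 187942 RPM of junction reads, no listed event belonged to any of 6 fibroblast genes, and of the 6 leukocyte and 5 endothelial genes only LYZ (1220 to 13142 RPM) and, in the U3 table, PECAM1 (at most 0.834 RPM) had any.

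The first question was how fully these exons were included in control cells and what siFUBP1 did to them. The inclusion level is the share of transcripts with the exon, from 0 to 1, computed from inclusion and skipping junction reads after division by the effective lengths. Over the 2394 members with reads in every library, the mean inclusion level was 0.819, 0.816 and 0.823 in the siCtrl2 libraries. In the siFUBP1 libraries it was 0.805, 0.795 and 0.795. All 3 siFUBP1 libraries were below all 3 siCtrl2 libraries. The difference was -0.0209 (0.819 ± 0.00373 against 0.798 ± 0.00610, SD, n = 3 each; exact permutation test, two-sided, p = 0.1, the smallest value that 3 against 3 libraries can give). The 8236 exons between short introns were at 0.840 ± 0.00177 and 0.843 ± 0.00158, a difference of 0.00247 with overlapping libraries (exact permutation p = 0.2).

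The difference between the classes was measured within each library. Members minus exons between short introns gave -0.0209 ± 0.00300 in siCtrl2 and -0.0444 ± 0.00731 with siFUBP1 (SD, n = 3 each). The change of that gap was -0.0234, and the groups did not overlap (exact permutation p = 0.1, the smallest possible). Against exons with a long intron before and a short one after, the change was -0.0124 with overlapping groups (exact permutation p = 0.2), and against exons with a short intron before and a long one after it was -0.0115 without overlap (exact permutation p = 0.1). With a mean of 50 or more reads per library, a setting chosen after seeing the data, the change against short introns was -0.0128, again without overlap (exact permutation p = 0.1).

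**Figure D1:**
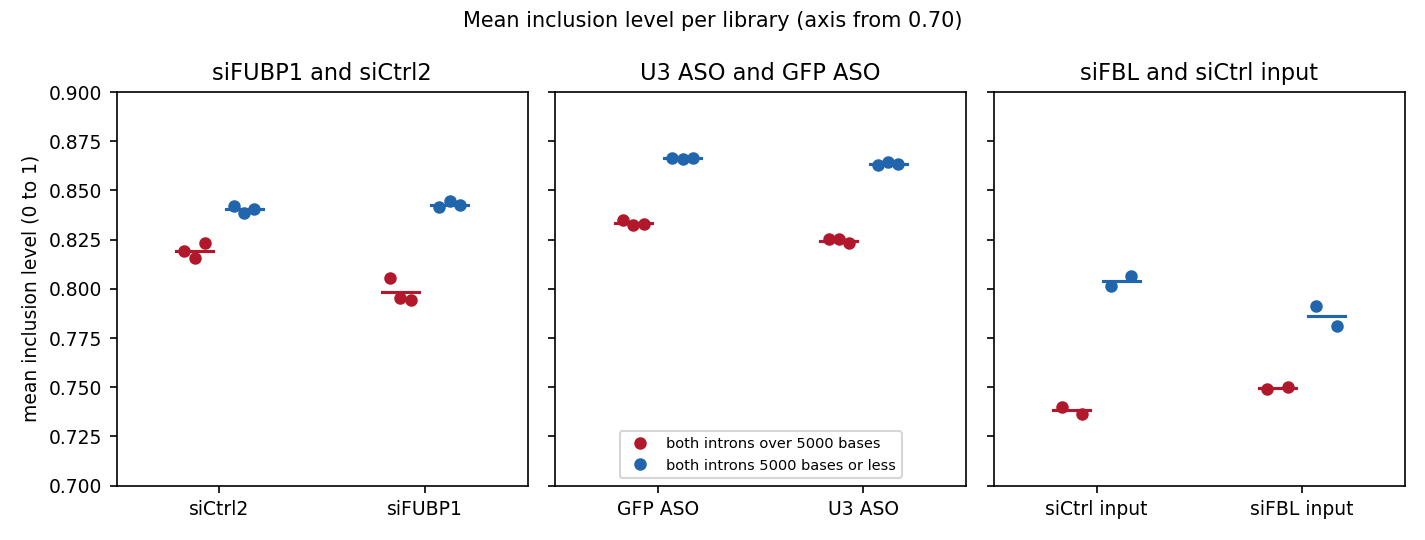
Mean inclusion level of each library (points) and the mean of its group (lines), for members with both introns over 5000 bases (red) and for exons with both introns of 5000 bases or less (blue), in the 3 comparisons; the axis starts at 0.70. The red siFUBP1 points, at 0.795 to 0.805, lie below the red siCtrl2 points at 0.816 to 0.823. The blue points of those groups overlap.

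Skipping junction reads made up 8.45%, 9.05% and 8.76% of all junction reads of members in siCtrl2 and 9.21%, 9.81% and 9.40% in siFUBP1. Every siFUBP1 library had a higher share than every siCtrl2 library. The difference was 0.719 percentage points (8.75 ± 0.300 against 9.47 ± 0.305, SD, n = 3 each; exact permutation p = 0.1). For exons between short introns the shares were 5.50 ± 0.0141 and 5.48 ± 0.0943, a difference of -0.0190 points (exact permutation p = 1). Exons with a short intron before and a long one after had a difference of 0.617 points without overlap (exact permutation p = 0.1), and members differed from that class by 0.102 points (exact permutation p = 0.7). Against exons with a long intron before and a short one after the members' difference was 0.605 points (exact permutation p = 0.2), and the libraries overlapped in both of these class comparisons.

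By the mean inclusion level over all libraries, the difference was largest in the range of 0.5 to 0.9. For the 376 members with a mean inclusion level of 0.5 to 0.9 over all libraries, the level was 0.816 ± 0.0219 in siCtrl2 and 0.747 ± 0.00778 in siFUBP1, a difference of -0.0687, while 1101 exons between short introns differed by 0.00480. For the 169 members at 0.1 to 0.5 the difference was -0.0369, and for the 774 at 0.9 to 0.98 it was -0.0201 (exact permutation p = 0.1 in all 3 ranges of members). The 860 members at 0.98 or more differed by -0.00218 and the 215 under 0.1 by -0.00320, both with overlapping libraries (exact permutation p = 0.3 and 0.5). The level that set the ranges included the depleted libraries, and an exon near 0 or 1 has little room to change. Small differences in the end ranges are therefore partly fixed by the ranges themselves.

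**Figure D2:**
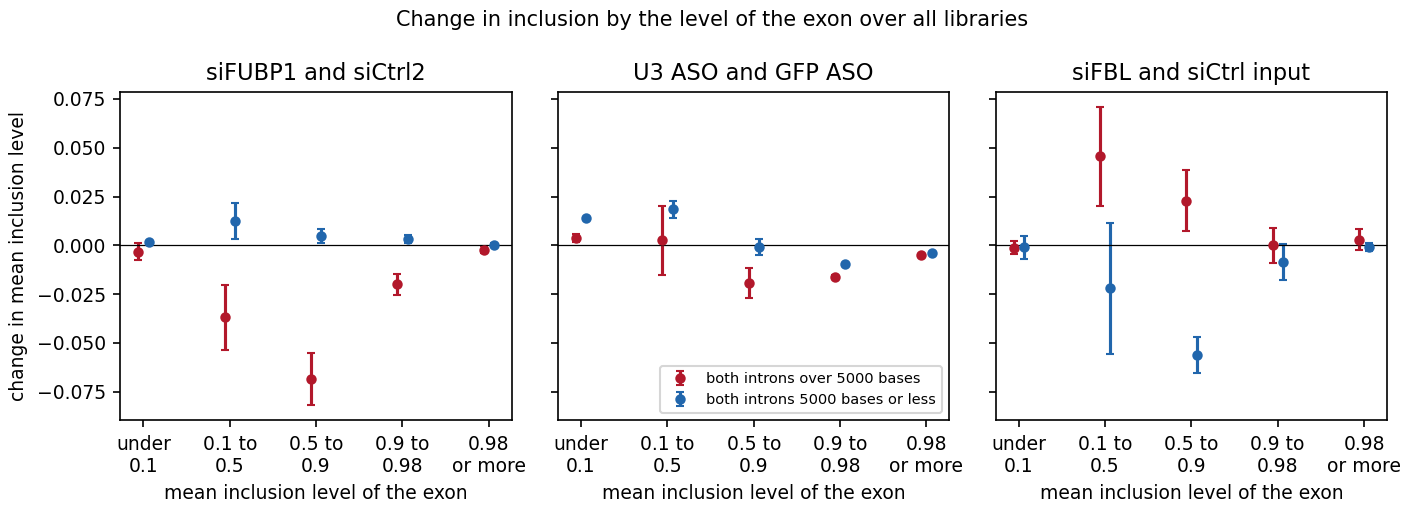
Change in mean inclusion level, depleted minus control, by the mean level of the exon over all libraries of its table, for members (red) and exons between short introns (blue); bars are the standard error from the library SDs. For siFUBP1 the members at 0.5 to 0.9 differ by -0.0687 and the exons between short introns by 0.00480.

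The change in mean inclusion level in siFUBP1 went down from range to range of intron length up to 20000 bases. By the length of the shorter flanking intron, and with lengths over 30 and under 300 bases throughout, the change in mean inclusion level in siFUBP1 was 0.0133 up to 500 bases (3962 events), -0.00186 from 500 to 1000, -0.00774 from 1000 to 2000 and -0.0124 from 2000 to 5000. Within the members it was -0.0206 from 5000 to 10000 bases (1306 events), -0.0251 from 10000 to 20000 (728), -0.0142 from 20000 to 50000 (373) and -0.0184 above 50000 (50). The libraries overlapped in the last 2 ranges (exact permutation p = 0.2 and 0.3), and differences among the 4 member ranges were not tested.

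**Figure D3:**
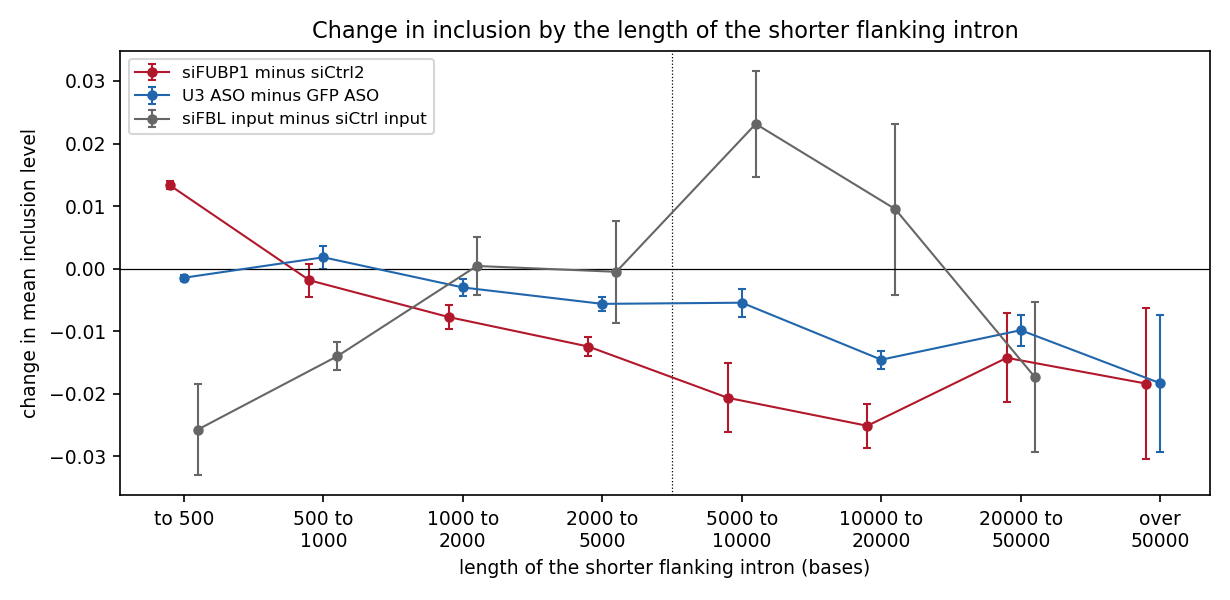
Change in mean inclusion level, depleted minus control, by the length of the shorter flanking intron in bases, with standard errors from the library SDs; members lie to the right of the dotted line. The siFUBP1 line goes from 0.0133 at up to 500 bases to -0.0251 at 10000 to 20000 bases, and siFBL is not drawn above 50000 bases, where it had 15 events.

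Base composition moved with the result. In members with GC under 30% in the 100 intron bases before the exon, inclusion in siFUBP1 differed by -0.0334 ± 0.00585 (SE, n = 3 libraries each), at 30% to under 40% by -0.0228 ± 0.00595, at 40% to under 50% by -0.0222 ± 0.00748 and at 50% or more, with overlapping libraries, by 0.0229 ± 0.0112. The exons between short introns followed a similar order, with -0.0183, -0.0116, 0.00448 and 0.0188. In the first 3 ranges the members were further down than the exons between short introns, by -0.0151, -0.0112 and -0.0267, without overlap of the libraries (exact permutation p = 0.1 each). In the range of 50% or more, with 274 members, the difference was 0.00408 with overlap (exact permutation p = 1). Members with TTTT in the last 50 intron bases differed by -0.0261 (1765 events) and those without it by -0.00662 (629 events), the latter with overlap. The change against exons between short introns was -0.0190 with TTTT (exact permutation p = 0.1) and -0.0186 without it (exact permutation p = 0.2). These ranges were set after the data had been seen, and the part of base composition in the result was not tested further.

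**Figure D4:**
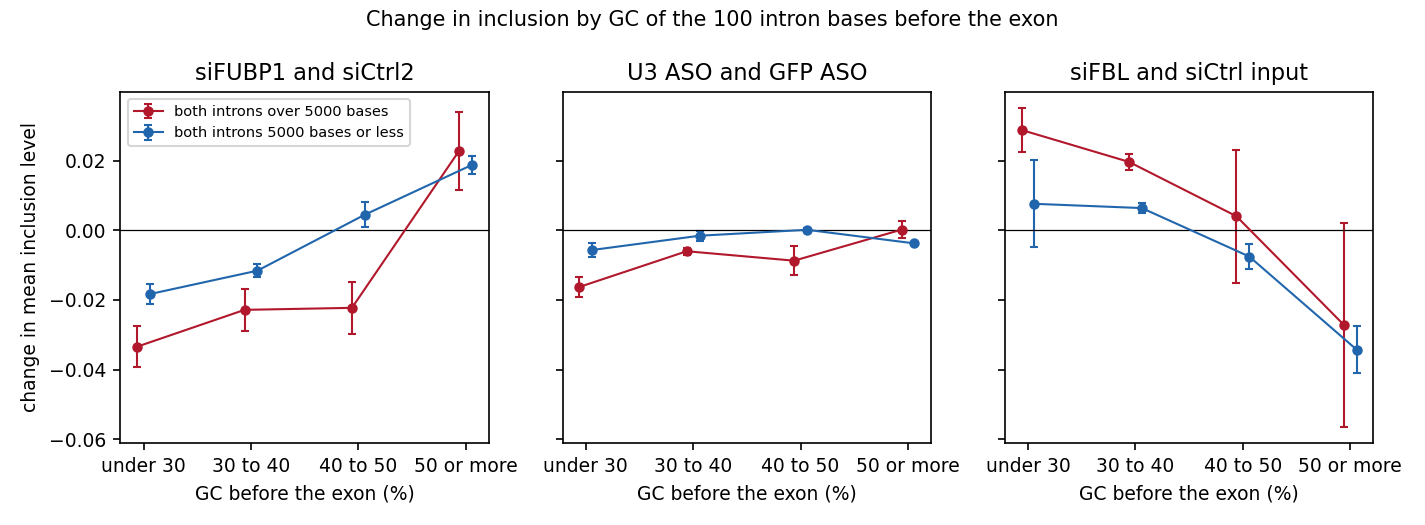
Change in mean inclusion level, depleted minus control, by the GC of the 100 intron bases before the exon, for members (red) and exons between short introns (blue), with standard errors from the library SDs. In siFUBP1 the members go from -0.0334 at under 30% GC to 0.0229 at 50% or more, and the exons between short introns from -0.0183 to 0.0188.

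By exon length the difference was -0.0325 under 75 bases (489 members), -0.0182 from 75 to under 150 (1316) and -0.0179 at 150 or more (652). Exons of a length divisible by 3 differed by -0.0266 and the others by -0.0169. Coding exons differed by -0.0251, partly coding exons by -0.0179 and untranslated exons by -0.0164, the last with overlapping libraries. The smaller classes were on the other side, all with overlap, at 0.00710 for exons of decay transcripts only (45 members), 0.0281 for noncoding transcripts only (41) and 0.0141 for exons not listed (79). Members with a mean under 50 reads differed by -0.0301 and those with 50 or more by -0.0125. Members whose intron before was the longer one differed by -0.0228 and those whose intron after was the longer one by -0.0182.

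Single exons were tested with a quasi-binomial model over all events of a table, with Benjamini-Hochberg adjustment and calls at adjusted p under 0.1. The dispersion came from a trend across events, so an exon's own spread between libraries had no part in its p. In siFUBP1, 6 member events passed, all lower, at 5 exons of 4 genes, and 0 were higher, while 0.117% of all tested events passed as lower and 0.0370% as higher. At an unadjusted p under 0.05, 81 members (3.30%) were lower and 24 (0.977%) higher, against 2.26% and 1.30% of all tested events. The libraries did not overlap for 108 members that were lower (4.40%) and 31 that were higher (1.26%), against 3.10% and 1.96% of all events. For exons between short introns the counts without overlap were 215 lower and 208 higher of 8396.

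RAB4A, a small GTPase of endosomal recycling, had the largest difference of these calls. Exon 3 (coding) was at 1, 0.945 and 1 in siCtrl2 and at 0.281, 0.455 and 0.635 in siFUBP1, with 92.8 reads per library. The groups were far apart (0.982 ± 0.0315 against 0.457 ± 0.177, SD, n = 3 each; quasi-binomial adjusted p = 0.000168). Exon 2 (chr1:229286486-229286566, 81 bases, coding) was at 1, 0.891 and 1 and at 0.0304, 0.108 and 0.310 (adjusted p = 0.00182). Exons 2 and 3 lie 2162 bases apart, so each was a member only in the form that leaves out the other. Joined to exon 3, exon 2 had 187, 118 and 103 inclusion reads in siFUBP1, against 3, 9 and 9 in its member event. Exon 3 joined to exon 2 had 228, 182 and 137, against 43, 71 and 40. In siFUBP1 the member levels therefore overstate the loss of either exon. The 2 member events share the junction from exon 1 to exon 4, and are not independent. That junction had 0, 3 and 0 reads in siCtrl2 and 62, 48 and 13 in siFUBP1. Skipping of exon 2 alone had 12, 1 and 0 reads against 0, 0 and 1, and skipping of exon 3 alone had 2, 8 and 3 against 0, 2 and 1. The skipping reads of siFUBP1 were thus nearly all from the junction that left out both exons together. The same junction had 39, 60 and 17 reads in GFP ASO and 55, 33 and 34 in U3 ASO, so it was not particular to siFUBP1. The call of exon 3 was lost without siCtrl2 library 3 (adjusted p = 0.112), and that of exon 2 without siCtrl2 library 1 (0.112) or siFUBP1 library 1 (0.149).

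ACSL4 codes for an acyl-CoA synthetase that prefers arachidonic acid, and its untranslated exon 2 (chrX:109696144-109696196, 53 bases) was a member with 2 downstream splice sites. Joined to the site 12768 bases on, its skipping junction had 65, 57 and 85 reads in siCtrl2 and 219, 169 and 164 in siFUBP1, and inclusion differed by -0.145 (adjusted p = 0.000168). The call was lost without siCtrl2 library 2, when the adjusted p was 0.116. Joined to the site 12477 bases on, it was at 0.978, 0.971 and 0.960 and at 0.794, 0.818 and 0.857 (adjusted p = 0.0611). This call was lost whichever library was left out (adjusted p from 0.108 to 0.587).

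CMC1, an assembly factor of mitochondrial cytochrome c oxidase, lost its coding exon 2 (chr3:28263291-28263380, 90 bases) in part. Inclusion was 0.839, 0.922 and 0.829 in siCtrl2 and 0.551, 0.565 and 0.646 in siFUBP1, with introns of 21478 and 52952 bases around it. All siFUBP1 libraries were lower (0.864 ± 0.0512 against 0.587 ± 0.0512, SD, n = 3 each; quasi-binomial adjusted p = 0.0388). MFF, the fission factor that recruits DRP1 to mitochondria, included its coding exon 6 (chr2:227347226-227347384, 159 bases) at 0.130, 0.269 and 0.243 in siCtrl2. In siFUBP1 it was at 0.0662, 0.0349 and 0.0490 (adjusted p = 0.0675). The adjusted p of MFF was above 0.1 whichever single library was left out (0.121 to 0.802), and that of CMC1 was under 0.1 only without siFUBP1 library 3 (0.0833), with up to 0.672 otherwise. By limma on log2 odds without a variance trend, RAB4A exon 2 had an adjusted p of 0.0835. The other called events had 0.188 to 0.863 by that test. By limma with the trend, CMC1 had 0.101, MFF 0.162 and the other called events 0.0703 or less.

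The next exons in order of p missed the adjusted threshold. Exon 2 of SMYD2 (chr1:214305187-214305250, 64 bases), a lysine methyltransferase, had no skipping reads in siCtrl2 and 35, 22 and 11 in siFUBP1, with levels of 1 against 0.825, 0.844 and 0.890 (quasi-binomial adjusted p = 0.104). Exon 14 of EPB41L2 (chr6:130878104-130878250, 147 bases), which links membrane proteins to the spectrin skeleton, was at 0.154, 0.231 and 0.110 against 0.02, 0.0587 and 0.0835 (adjusted p = 0.172). An untranslated exon of HPCAL1 (chr2:10408562-10408734, 173 bases), a calcium-binding protein, went the other way, at 0.196, 0.134 and 0.05 against 1, 0.492 and 0.393 (adjusted p = 0.192).

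**Figure D5:**
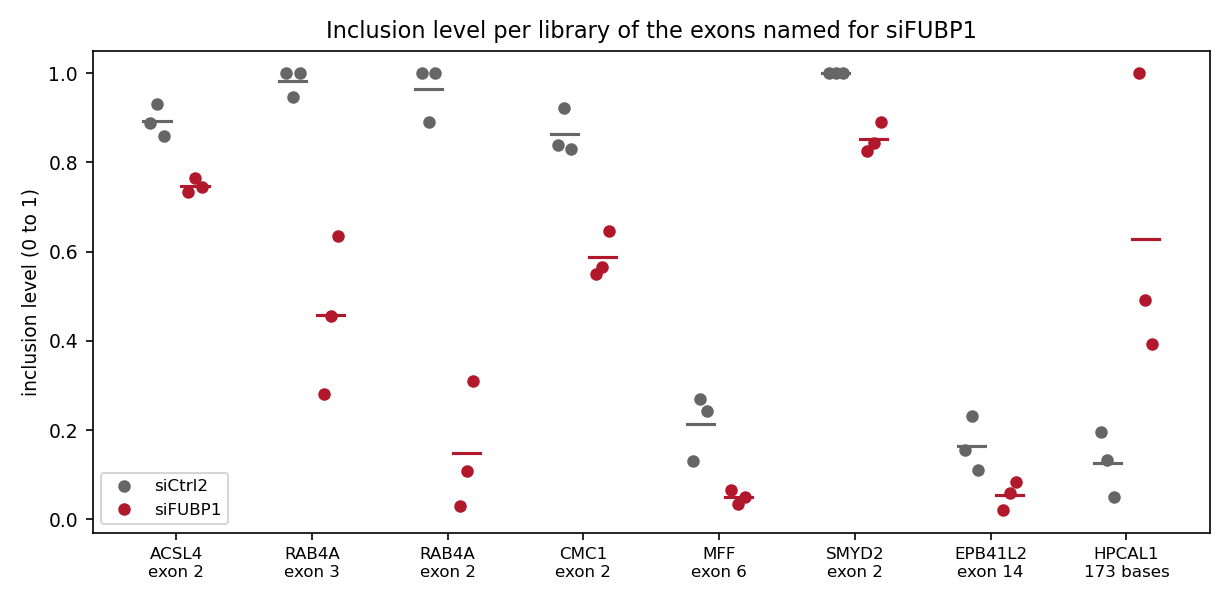
Inclusion level of each library (points) and group means (lines) for the 8 exons named in the siFUBP1 comparison, siCtrl2 in grey and siFUBP1 in red. Of these, 7 exons have all siFUBP1 points below the siCtrl2 points, and the HPCAL1 exon of 173 bases has them above.

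The members with the longest shorter intron were also looked up in the siFUBP1 table, whatever their change. With 50 or more reads per library these were exon 2 of GMDS, an enzyme of GDP-fucose synthesis (introns of 120589 and 163720 bases), of PARD3, a cell polarity protein (118456 and 179158), of ZFAND3, a zinc finger protein (109942 and 131593), of NOS1AP, an adaptor of neuronal nitric oxide synthase (84122 and 132867), and of NDUFAF2, an assembly factor of respiratory complex I (127742 and 79489). In the siFUBP1 table GMDS had 0 skipping reads in every library but siFUBP1 library 3, with 3. In the same libraries PARD3 had 0 but for 22 in siFUBP1 library 2, NOS1AP 0 but for 1 in siFUBP1 library 3, and NDUFAF2 0 but for 7 in siCtrl2 library 1. ZFAND3 was at 0.719 ± 0.195 in siFUBP1 against 0.969 ± 0.0429 in siCtrl2 (SD, n = 3 each; quasi-binomial adjusted p = 0.331), with libraries that overlapped. The other tables held more skipping of some of these exons. NOS1AP was at 0.779, 0.921 and 0.949 in GFP ASO against 0.989, 1 and 0.976 in U3 ASO (quasi-binomial adjusted p = 0.868). ZFAND3 averaged 0.919 in GFP ASO and 0.870 in U3 ASO, and 0.818 in siCtrl input and 0.877 in siFBL input, with overlap in both tables. NDUFAF2 was at 0.525 in siFBL input library 1, with 22 skipping reads, and at 1 in the other 3 input libraries, and PARD3 had 6 skipping reads in U3 ASO library 3 and 0 in the other libraries of that table.

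The second question was what U3 depletion did to the same kind of exon. Over 4223 members with reads in every library, the libraries had mean inclusion levels of 0.835, 0.833 and 0.833 with GFP ASO and of 0.825, 0.825 and 0.823 with U3 ASO. The difference was -0.00892 without overlap (0.833 ± 0.00119 against 0.824 ± 0.00118, SD, n = 3 each, exact permutation p = 0.1, the smallest possible). Without scaling by the effective lengths it was -0.00428. The exons between short introns also had a lower level in U3 ASO, by -0.00280 (exact permutation p = 0.1), and the gap between the classes changed by -0.00612 without overlap (exact permutation p = 0.1). With a mean of 50 or more reads the gap changed by -0.00284, with introns over 10000 bases by -0.0110 and with introns over 2000 bases by -0.00316.

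The share of skipping reads did not separate members from exons between short introns. Among members it averaged 7.17% ± 0.0363 with GFP ASO and 7.72% ± 0.130 with U3 ASO, a difference of 0.555 points, and among exons between short introns 4.03% ± 0.0546 and 4.67% ± 0.0480, a difference of 0.645 points (SD, n = 3 each). The change of the gap was -0.0907 points with overlapping groups (exact permutation p = 0.3). Against exons with a long intron before and a short one after, the members' share rose by 0.591 points more. Against exons with a short intron before and a long one after it rose by 0.384 points more. Neither of these 2 comparisons had overlap (exact permutation p = 0.1 each). Members took 6.99%, 6.99% and 6.93% of junction reads of the tested events in GFP ASO and 7.57%, 7.58% and 7.68% in U3 ASO. In a bulk sample, fewer cells that express these genes and less of their RNA per cell cannot be told apart. Junction reads of the hepatocyte genes were at 122991 ± 1092 RPM with GFP ASO and 88881 ± 1338 with U3 ASO (SD, n = 3 each), and their part in these values was not tested.

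By the length of the shorter intron, the change in U3 ASO was -0.00544 from 5000 to 10000 bases, with overlapping libraries, -0.0146 from 10000 to 20000, -0.00983 from 20000 to 50000 and -0.0183 above 50000, again with overlap. It was -0.00145 up to 500 bases, 0.00182 from 500 to 1000 and -0.00300 from 1000 to 2000, both with overlap, and -0.00563 from 2000 to 5000. By GC before the exon, members under 30% differed by -0.0163 ± 0.00287 and those at 50% or more by 0.000181 ± 0.00240 (SE, n = 3 libraries each). For members at 0.5 to 0.9 inclusion the difference was -0.0194 against -0.000905 for exons between short introns.

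Single members were called about as rarely as other events or less. Only 1 member passed in U3 ASO, higher, and 0 passed as lower, against 0.103% of all events higher and 0.0830% lower. At unadjusted p under 0.05, 75 members (1.73%) were higher and 59 (1.36%) lower, against 1.72% and 1.53% of all events. Without overlap there were 156 lower (3.59%) and 91 higher (2.10%), against 3.72% and 2.31%. These shares were near the background in both directions.

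The called exon was an untranslated exon of RAB5C, a GTPase of early endosomes (chr17:42137762-42137878, 117 bases), whose intron before it ends in the T runs printed above. Its level was 0.0299, 0.0238 and 0.00282 with GFP ASO and 0.0550, 0.0551 and 0.0392 in U3 ASO, with 1374 reads per library. The exon stayed rare in all libraries, and the groups did not overlap (0.0188 ± 0.0142 against 0.0498 ± 0.00912, SD, n = 3 each; quasi-binomial adjusted p = 0.0636). Leaving out 1 library gave adjusted p from 0.0189 to 0.937, and the call was lost without GFP ASO library 2 or 3 or without U3 ASO library 1 or 2. By limma on log2 odds the adjusted p was 0.834 without a variance trend and 1.65e-05 with it.

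The further named exons of U3 ASO did not pass and had adjusted p from 0.140 to 0.853. An untranslated exon of AZIN1, the inhibitor of antizyme in polyamine control, had 2 forms of 158 and 146 bases on chromosome 8, which were at 0.0854 ± 0.00571 against 0.243 ± 0.0189 and at 0.228 ± 0.0207 against 0.405 ± 0.0618 (SD, n = 3 each). They share their skipping reads and 1 splice site. A coding exon of MAP4K4, a stress kinase (chr2:101859736-101859864, 129 bases), was at 0.961, 0.943 and 0.921 against 1, 0.991 and 1. An untranslated exon of the glutamine transporter gene SLC38A1 (chr12:46254814-46254936, 123 bases) was at 0.0500, 0.0250 and 0 against 0.354, 0.161 and 0.204. These exons were higher in all U3 ASO libraries.

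Lower in all U3 ASO libraries were 3 exons. Exon 6 of TBCE, a tubulin folding cofactor (chr1:235401503-235401587, 85 bases), was at 0.969, 0.981 and 0.987 against 0.963, 0.782 and 0.880. Exon 2 of NAP1L1, a histone chaperone (chr12:76074203-76074239, 37 bases), was at 1, 0.895 and 0.898 against 0.708, 0.636 and 0.874. An exon of FIP1L1, a subunit of the polyadenylation complex (chr4:53452963-53453133, 171 bases, in no transcript of the annotation with these ends), was at 1, 0.98 and 0.996 against 0.931, 0.896 and 0.885.

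The third comparison was FBL depletion, with 2 libraries a group and the lowest depth of the 3 tables. The mean inclusion level of 693 members was 0.740 and 0.737 in siCtrl input and 0.749 and 0.750 in siFBL input, a difference of 0.0113 without overlap (exact permutation p = 0.333, the smallest that 2 against 2 can give). Exons between short introns differed by -0.0179, and the gap between the classes by 0.0293 (exact permutation p = 0.333 both). With introns over 10000 bases on both sides the difference of the members was -0.000479. The members' skipping share was 12.2% and 13.0% against 12.3% and 11.8%, with overlap. Junction reads of the hepatocyte genes were at 172834 ± 1166 RPM for siCtrl input and 187753 ± 266.2 for siFBL input (SD, n = 2 each), and their part in these values was not tested.

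By GC before the exon, members under 30% differed by 0.0288 ± 0.00632 and those at 50% or more by -0.0271 ± 0.0293 (SE, n = 2 libraries each), and exons between short introns by 0.00760 and -0.0342. The libraries overlapped for members at 50% or more and for exons between short introns under 30%. With that limit, the order of the mean changes by GC was opposite to that in siFUBP1 in both classes. No event was called in either direction (0% of all tested events), by the quasi-binomial model or, among members, by limma on log2 odds. At unadjusted p under 0.05 there were 10 members higher (1.39%) and 3 lower (0.417%), against 0.557% and 0.902% of all events. Without overlap there were 67 higher (9.32%) and 44 lower (6.12%), against 6.19% and 7.63%. Leaving out 1 library moved the members at unadjusted p under 0.05 between 1, without siFBL input library 1, and 49, without siFBL input library 2, of which 40 were lower and 9 higher.

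With at least 20 reads per library, 3 exons met the naming rule for siFBL, all untranslated, with an adjusted p of 0.898. Exon 2 of RALY, an RNA-binding protein of the hnRNP family (chr20:34031522-34031604, 83 bases), was at 0.873 and 0.9 against 1 and 1, with 34 and 16 skipping reads against 0 and 0. An exon of DAG1, the gene of dystroglycan (chr3:49476849-49476905, 57 bases), was at 0.0719 and 0.0159 against 0.224 and 0.299. Exon 2 of MFSD6, a membrane protein of the major facilitator family (chr2:190415292-190415413, 122 bases), was at 0.155 and 0.0211 against 0.423 and 1. In siFUBP1 the libraries overlapped for all 3 exons, and in U3 ASO they overlapped for RALY and DAG1.

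The comparisons have separate controls, so their changes were set against each other over shared members. Over 1761 members with reads in every library of both tables, inclusion differed by -0.0228 in siFUBP1 and by -0.00756 in U3 ASO. The difference between these changes was -0.0153 (exact permutation test within contrasts, p = 0.17; adjusted over 3 pairs 0.17). Over 559 members shared with the FBL table the changes were -0.0184 in siFUBP1 and 0.0125 in siFBL, a difference of -0.0309 (exact permutation p = 0.0167, the smallest possible; adjusted p = 0.05). Over 623 members the changes were -0.00362 in U3 ASO and 0.0146 in siFBL, a difference of -0.0182 (exact permutation p = 0.0333; adjusted p = 0.05).

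Event by event, of 1760 members with a nonzero change in siFUBP1 and U3 ASO, 940 (53.4%) had the same sign, and Pearson's r across events was -0.0179, a description over events that share libraries. Of the shared members without overlap between groups, 103 were lower in siFUBP1 and 106 in U3 ASO, and 7 were lower in both. Those 7 are 6.80% of the first list and 6.60% of the second, while 6.02% of all shared members were lower without overlap in U3 ASO and 5.85% in siFUBP1. Of 30 members higher in siFUBP1 and 61 in U3 ASO, 3 were higher in both.

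From the members tested in all 3 tables, 5 were chosen for a lack of overlap and the same direction in siFUBP1 and U3 ASO, so their values are a description. All 5 were lower. Exon 2 of MRTFA, a coactivator of serum response factor (chr22:40594674-40594735, 62 bases, untranslated), was at 1 in all siCtrl2 libraries against 0.763, 0.567 and 0.150, and at 0.767, 0.846 and 0.847 in GFP ASO against 0.503, 0.414 and 0.555. Its depth in the siFUBP1 table was 21.0 reads per library. Exon 2 of CMC1 was at 0.865, 0.846 and 0.895 in GFP ASO against 0.834, 0.751 and 0.764. An untranslated exon of MBNL3, a splicing regulator (chrX:132439435-132439572, 138 bases), was at 0.172, 0.135 and 0.133 against 0.0740, 0 and 0 in siFUBP1, and at 0.230, 0.132 and 0.135 against 0.0833, 0.106 and 0.0616 in U3 ASO.

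Exon 2 of USP6NL, a GTPase-activating protein for RAB5 (chr10:11597631-11597717, 87 bases, partly coding), was at 1, 0.938 and 1 against 0.776, 0.898 and 0.863 in siFUBP1. It was at 1, 0.987 and 1 in GFP ASO against 0.967, 0.961 and 0.952 in U3 ASO. ACSL4 exon 2 with the site 12477 bases on was at 0.971, 0.996 and 1 in GFP ASO against 0.913, 0.908 and 0.886. With the site 12768 bases on, the same exon was at 0.824, 0.751 and 0.759 against 0.817, 0.806 and 0.856, with overlap, and the difference between the 2 events was not tested. In siFBL the libraries of these 5 events overlapped, and MRTFA had no reads in siFBL input library 1, which its fit leaves out. In U3 ASO none of these exons passed the adjusted threshold (quasi-binomial adjusted p = 0.868 each), and in siFUBP1 MRTFA, MBNL3 and USP6NL did not pass either (0.836 each).

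The members were also grouped by gene family, using the first letters of the symbol, which took unrelated genes into the lists. Examples are METTL genes, METAP2 and ATRX among the kinases, and ANKRD genes, ITGB3BP and MAGI2-AS3 among cytoskeleton and adhesion. The values below therefore describe groups of symbols and not strict families. In siFUBP1, members of ubiquitin system genes without overlap were 8 lower and 0 higher of 91, those of cytoskeleton and adhesion genes 7 and 0 of 113, and those of membrane traffic genes 4 and 1 of 96. Kinase genes had 4 and 2 of 102, chromatin and transcription genes 4 and 0 of 117, RNA-binding and splicing genes 3 and 1 of 41, and regulators of small GTPases 1 and 1 of 71. In the order given, the lower shares were 8.79%, 6.19%, 4.17%, 3.92%, 3.42%, 7.32% and 1.41%, beside 4.40% of all members and 3.10% of all tested events. The median change ran from -0.0180 for cytoskeleton and adhesion to -0.00381 for the ubiquitin system, with -0.00954 over all members and -0.00139 over all tested events.

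In U3 ASO the lower shares without overlap ran from 1.32% for membrane traffic to 7.59% for RNA-binding and splicing genes. The higher shares ran from 1.00% for regulators of small GTPases to 3.87% for cytoskeleton and adhesion. Over all members these shares were 3.59% and 2.10%, and over all tested events 3.72% and 2.31%. The medians of the 7 lists ran from -0.0141 for regulators of small GTPases to -0.00370 for kinases, beside -0.00620 over all members and -0.00355 over all tested events. In both comparisons all 7 medians were negative, as was the median over all members. Of the calls, 2 in siFUBP1 (both RAB4A) and 1 in U3 ASO (RAB5C) belonged to a list, that of membrane traffic. In siFBL the 7 medians ran from -0.0461 for chromatin and transcription to 0.0177 for membrane traffic, over 12 to 46 members a list.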

How the data were processed

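RNA of HepG2 cells was sequenced after depletion of FUBP1, U3 or FBL, and per the study's methods reads were trimmed with cutadapt, aligned to hg38 with HISAT2 and counted over skipped exon events with rMATS from junction reads only. Tool versions are not given in the sources used here. The authors deposited, for each event, a list of inclusion and skipping junction read counts per group, with 1 entry per library, and 2 effective lengths. These counts are not normalized. The positions in the lists carry no replicate number, so libraries are numbered here by position. The 9 columns of inclusion levels and their differences were not used, and neither were the authors' p-values, false discovery rates or the fold changes of the immunoprecipitation.

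Inclusion levels were computed from the read counts after division by the effective lengths. Means over members used events with reads in every library, and groups were compared by exact two-sided permutation of libraries, where 3 against 3 cannot go below p = 0.1 and 2 against 2 not below 0.333. Single events with a mean of 10 or more reads were tested with a quasi-binomial model whose dispersion was moderated across events with limma 3.58.1 in R 4.3.3, with Benjamini-Hochberg adjustment over all events of a table. In all 3 tables the moderation was complete (infinite prior weight). The dispersion was therefore that of the trend, and an event's own spread between libraries had no part in its p. The script was tested on simulated data. Annotation was taken from GENCODE 44 and sequence from hg38 with pysam 0.24.0. The sequence of 1 named exon is not reported here. Alternatives were other intron lengths, read minimums, inclusion ranges, no length scaling, 1 event per exon, limma on log2 odds (0.5 added to each count) and leaving out each library.

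Named exons were, per table, up to 10 members with an adjusted p under 0.1, filled up to 8 with those of the smallest unadjusted p under 0.05, 50 or more reads (20 for siFBL), no overlap of the groups and a change of 0.05 or more. Added to these were the 5 members with the largest smaller change that did not overlap and moved alike in siFUBP1 and U3 ASO, and the 5 with the longest shorter intron. The second ACSL4 event entered through the former. The members, lists and tests were chosen with earlier results of these data known.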

Additional observations from a re-analysis of the deposited data

Results flagged for a closer look

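The change in inclusion of shared members differed between FBL depletion and the other depletions. Over 559 members measured in both tables, siFUBP1 minus siFBL was -0.0309 on the scale of the inclusion level (-0.0184 against 0.0125; exact permutation p = 0.0167, adjusted p = 0.05). Over 623 members, U3 ASO minus siFBL was -0.0182 (-0.00362 against 0.0146; exact permutation p = 0.0333, adjusted p = 0.05). Both were singled out because the test of the difference itself had an unadjusted p under 0.05. The siFBL libraries were inputs of an immunoprecipitation, prepared from lysates, and the other libraries came from whole-cell RNA. The study's methods give poly(A) selection for the other libraries and name none for the inputs. Each change was taken against a control of the same preparation. Depletion and preparation still cannot be told apart, in the levels or in these differences of changes.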

How the results depend on the processing

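Of 195 alternatives to the main results, 173 kept the direction and the side of the threshold or stayed near the main count. For mean inclusion, class difference and skipping share the threshold was an exact permutation p of 0.05. No setting could reach it with 3 or 2 libraries a group, so only their direction was free to change. The number of called members moved most. In siFUBP1 it was 6, against 3 with both introns over 10000 bases, 2 by limma on log2 odds without a variance trend, 15 with the trend, and 2 to 4 when 1 library was left out. In U3 ASO it was 1, against 0 over 10000 bases, 6 over 2000 bases, 0 by limma without and 29 with the trend, and 0 to 1 when 1 library was left out. In siFBL it was 0 under every setting run, with 13 members at an unadjusted p under 0.05.

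The class difference turned positive for exons with a GC of 50% or more before them, at 0.00408 in siFUBP1 and 0.00394 in U3 ASO, and the mean change of siFBL members was -0.000479 with introns over 10000 bases. The difference of U3 ASO and siFBL over shared members lost its call without length scaling (-0.0109, p = 0.217 by exact permutation) and within inclusion levels of 0.1 to 0.9 (-0.0299, exact permutation p = 0.15). Leaving out 1 library gave -0.0198 to -0.0171, with an exact permutation p of 0.05 without U3 ASO library 1 or 2. The cause was not tested. For siFUBP1, leaving out 1 library gave a mean change of -0.0245 to -0.0190 and a class difference of -0.0276 to -0.0210. Of 146 alternatives for named exons, 0 reversed, which was fixed in advance. Groups that do not overlap keep their direction when a library is left out, and the limma settings reused the main change.

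No paired analysis was possible because the positions in the lists of reads carry no replicate number. With 3 or 2 libraries a group and a median of 50.5, 93.1 and 34.25 reads per member in the siFUBP1, U3 and siFBL tables, depth limits what can be called for single exons.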
